A study of Mus musculus with 27 samples.

Results

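The genes described here write, maintain and remove methyl groups on cytosine, or repair DNA mismatches. They are the maintenance methyltransferase gene Dnmt1 and its partner Uhrf1, the de novo methyltransferase genes Dnmt3a and Dnmt3b, the dioxygenase genes Tet1, Tet2 and Tet3, and the mismatch repair gene Msh6. They were chosen by gene symbol. All 8 were found among the 17440 genes of a deposited table of CPM, the count of a gene scaled to a fixed library total (the CPM table), and 7 of the 8 among the 15176 genes of a second table (the knockout table). Tet1 was not analysed in the knockout table.

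RNA was sequenced from intestinal epithelial tissue and intestinal adenomas of mice, 27 libraries in all, and the design asked how tumours with activated Braf, or with the AP-1 factor gene Fosl1 added or deleted, differ from normal epithelium. The Fosl1 transgene group (3 libraries, CPM table) came from adenomas of Tet-o-Fosl1;Vil-CreERT2/+ mice, titled FTg-ON, whose chow held doxycycline at 2000 mg/kg from 1 week after tamoxifen. Doxycycline is named for no other group, and no transactivator for the switchable gene is named. The Braf Fosl1 knockout group (6 libraries, knockout table) came from adenomas of BrafV637E/+;Vil-CreERT2/+;Fosl1lox/lox mice. The Braf group came from adenomas of BrafV637E/+;Vil-CreERT2/+ mice (libraries 1 to 3 in the CPM table, 4 to 8 in the knockout table, the last without a number in its title), which carry the mouse counterpart of the most common human BRAF mutation. A treatment text shared by all samples gives 5 mg of tamoxifen by gavage on 2 days to mice aged 6 weeks. Control mice received sunflower oil instead, and the same text counts them among the Braf genotype, so the controls (libraries 1 to 3 and 4 to 9) may carry the allele without its activation. Vil-CreERT2 is a tamoxifen-dependent Cre recombinase driven by the villin promoter, which is active in intestinal epithelium. Age at collection and batch were not given in the sources used here. A further library of the knockout table, whose title and genotype labels disagree, entered no comparison. Comparisons with control also compare adenoma with normal tissue, which cannot be told apart from the effect of a genotype, and the comparisons of a table share its libraries.

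Dnmt1 copies methylation onto the new DNA strand during replication, and Uhrf1 reads half-methylated CpG sites and brings Dnmt1 to them. Dnmt3a and Dnmt3b place methyl groups on unmethylated CpG sites, while the Tet enzymes oxidise methylcytosine as a step towards its removal. Msh6 takes part in the recognition of base mismatches. Human serrated colorectal tumours with BRAF mutation often show dense methylation of CpG islands and loss of mismatch repair, which makes these genes of interest in a Braf mouse model.

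Promoter sequences are shown for the genes named next because E2F factors, which drive genes of the replication phase, are known to bind sites of the forms TTTGGCGC, TTTCGCGC, TTTCCCGC and TTTGCCGC. These letters were searched on both strands, with overlapping matches counted, in RefSeq promoter windows of 300 bases (250 before to 50 after a start, GRCm38.p6). The 8 genes matched 13 windows, and a motif lay in 1 of 3 windows of Dnmt1, 1 of 2 of Uhrf1 and 1 of 1 of Msh6. None of these letters occurred in the windows of Dnmt3a, Dnmt3b or the Tet genes, and 2.26% of 32851 promoter windows of any gene held one. The stretches below hold the motif in capitals, on the strand of the gene, at chr9:20952824-20952853 (minus) for the first Dnmt1 match, chr9:20952574-20952601 (minus) for the second, chr17:56304117-56304146 (plus) for Uhrf1 and chr17:87975054-87975083 (plus) for Msh6.
Dnmt1, first match: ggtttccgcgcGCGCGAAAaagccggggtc
Dnmt1, second match: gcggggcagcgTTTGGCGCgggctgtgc
Uhrf1: cccgagtcgggTTTCGCGCgcccaggcgtc
Msh6: ctcctcccgacTTTCCCGCcagcggcggcc
A match describes the letters and not a bound site. Binding was not measured.

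The promoter of Dnmt3b is shown because this gene changed most often among the 8. The 250 bases before its start (chr2:153649199-153649448, plus strand, RefSeq, GRCm38.p6) hold 21 CpG dinucleotides, in capitals here. The whole window held 30, against a median of 7 over all promoter windows (quartiles 3 and 20). Of the other genes, Tet2 (57), Msh6 (37) and the richest windows of Dnmt3a (47), Dnmt1 (33) and Uhrf1 (33) held more. Tet3 (22), Tet1 (17) and the poorest windows of Dnmt3a (18), Uhrf1 (12) and Dnmt1 (2) held fewer. This richness is thus not particular to Dnmt3b. Methylation itself was not measured in these files.
Dnmt3b: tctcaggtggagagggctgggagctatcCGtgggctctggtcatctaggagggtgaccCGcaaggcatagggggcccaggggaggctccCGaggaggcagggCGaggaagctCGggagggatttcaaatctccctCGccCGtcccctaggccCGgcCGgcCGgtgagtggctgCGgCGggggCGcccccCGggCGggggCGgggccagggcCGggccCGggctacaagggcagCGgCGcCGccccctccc

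Library totals in the CPM table were 12.4 to 15.5 M reads, so 3 reads stood for 0.194 to 0.242 CPM. In the knockout table, the deposited normalised counts were multiplied by a single constant to be readable beside CPM (nCPM), and depth was not recovered. All 9 epithelial markers (Epcam, Cdh1, Vil1 and others) were present in every library, with summed levels of 13750 to 15707 CPM in transgene, 21152 to 23655 in Braf and 13083 to 15114 in control libraries. The sums in the knockout table were 10718 to 23596 nCPM in knockout, 14646 to 18675 in Braf and 8738 to 11740 in control libraries. Stromal markers were mostly higher in the adenomas, though the lowest fibroblast sum of Braf in the CPM table was below the highest control. Summed fibroblast markers reached 666 to 1280 CPM in transgene, 22.5 to 192 in Braf and 8.86 to 26.4 in control libraries, for 8 of 8 genes. Of these, 7 of 8 in the knockout table gave 60.5 to 285 nCPM in knockout, 77.2 to 530 in Braf and 7.47 to 17.2 in control libraries. Summed T cell markers were 27.2 to 40.6 CPM in transgene, 4.27 to 27.6 in Braf and 32.3 to 83.8 in control libraries. Their sums in the knockout table were 2.63 to 22.4 nCPM in knockout, 7.42 to 22.9 in Braf and 19.9 to 63.1 in control libraries. Among the markers of other cells, Cxcr2 and S100a8 of neutrophils and Cldn5 of endothelium were at 0 in all controls of the CPM table. The part of these cells in the results below was not tested, and fewer cells of a type cannot be told apart from less RNA per cell in bulk tissue. Mitochondrially encoded genes took 15.8 to 28.5% of the values in control 4, control 5 and knockout 2, and 3.51 to 13.6% in the other grouped libraries of that table.

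**Figure D1:**
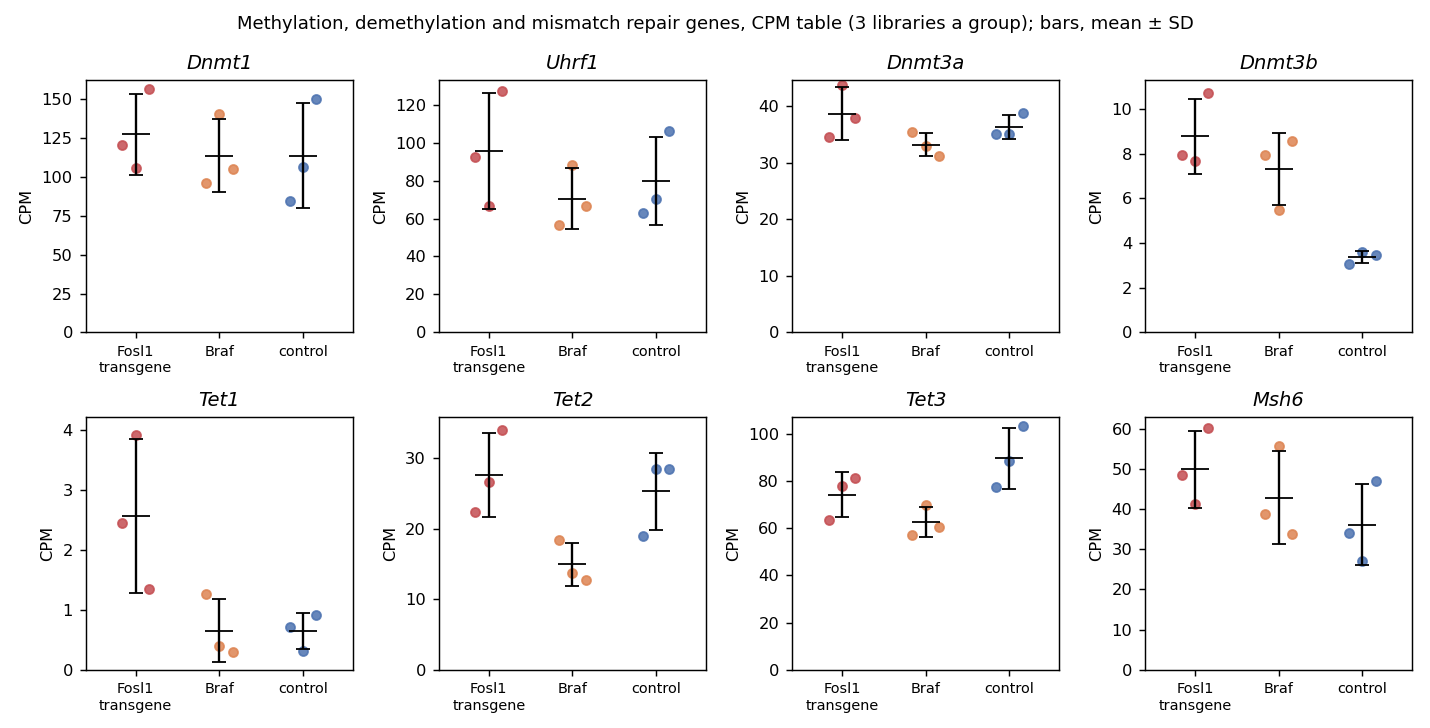
Level of each gene in the CPM table (y axis, CPM) in Fosl1 transgene, Braf and control libraries (3 each); points are libraries, horizontal bars means and whiskers SD. Dnmt3b separates all 6 adenoma libraries (at least 5.48 CPM) from the controls (at most 3.58 CPM), and Tet1 is highest in the transgene libraries.

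**Figure D2:**
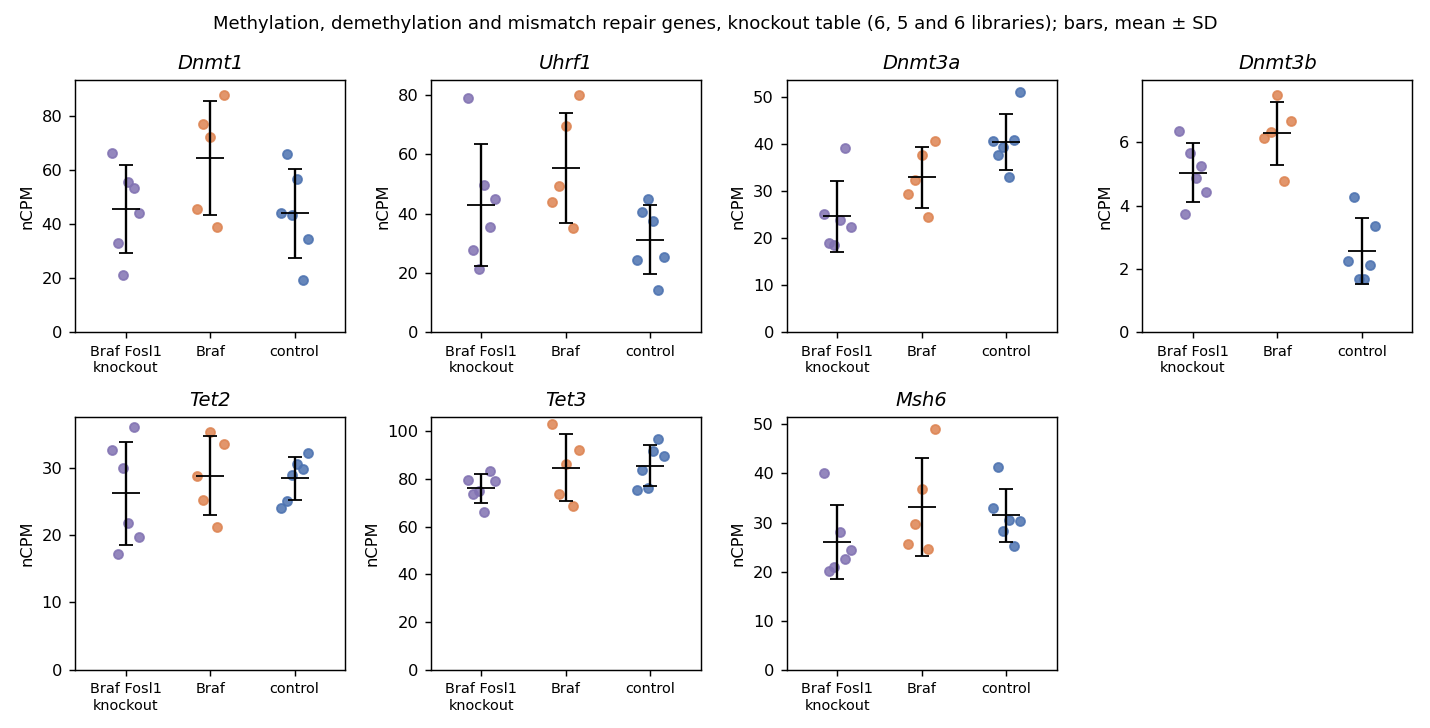
Level of each gene in the knockout table (y axis, nCPM) in Braf Fosl1 knockout (6), Braf (5) and control (6) libraries; points are libraries, horizontal bars means and whiskers SD. Dnmt3b is low and Dnmt3a high in controls, while Dnmt1 and Uhrf1 spread widely within every group.

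The levels were fitted with limma on log2(value + 1) over all genes of a table, and a gene was called at an adjusted p (Benjamini-Hochberg) below 0.05. Dnmt3b was called higher in every comparison of adenoma with control. In Fosl1 transgene against control, 2 of 8 genes were called, both higher (Dnmt3b and Tet1), where 64.2% of all genes tested were called (46.7% higher and 17.5% lower). In Braf against control in the CPM table, 3 of 8 were called, Dnmt3b higher and Tet2 and Tet3 lower, beside 51.1% of all genes (33.1% higher and 18% lower). Between transgene and Braf adenomas, 2 of 8 were called, Tet1 and Tet2 higher, beside 19.2% of all genes (14.5% higher and 4.72% lower). The share of members called was below that of all genes in both comparisons with control and near it in transgene against Braf. Tet1 entered the fit through the transgene libraries, where it is high, as described below. Its calls against control and against Braf are counted here but are no support beyond its values. The nearness in transgene against Braf rests in part on the Tet1 call.

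In the knockout table, Braf against control called 2 of 7 genes, Dnmt3b and Uhrf1, both higher, beside 61.6% of all genes (45.3% higher and 16.2% lower). Braf Fosl1 knockout against Braf called 0 of 7, beside 0.419% of all genes (62 of 14806, with 0.0473% higher and 0.371% lower). Dnmt3a alone of the 7 had an unadjusted limma p below 0.05, no count model was run on this table, and every alternative that was run also called 0. Braf Fosl1 knockout against control called 2 of 7, Dnmt3b higher and Dnmt3a lower, beside 56.8% of all genes (37.4% higher and 19.4% lower).

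The median log2 change of the 8 genes was 0.22 in transgene against control, beside 0.47 over all genes, and -0.07 in Braf against control, beside 0.27. For transgene against Braf it was 0.24, beside 0.17. Over the knockout table the median of the 7 genes was 0.04 in Braf against control (all genes 0.42), -0.33 in knockout against Braf (all genes -0.15) and -0.16 in knockout against control (all genes 0.27). Tumour libraries thus had a positive median gene against control under the deposited scaling. TMM scaling, which centres the bulk of genes, brought these medians to 0.08 or less in size. The scaling also moved the calls of all genes towards balance, from 7085 higher and 2658 lower to 4798 and 4320 in transgene against control, and from 5020 and 2731 to 3790 and 3785 in Braf against control. In transgene against Braf the split moved from 2202 and 716 to 1707 and 1237. For the knockout table it moved from 6712 and 2405 to 4302 and 4351 in Braf against control, from 7 and 55 to 9 and 25 in knockout against Braf, and from 5535 and 2874 to 4187 and 4404 in knockout against control. Where this scaling changes the direction or the call of a member in a comparison described below, its value is given there.

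**Figure D3:**
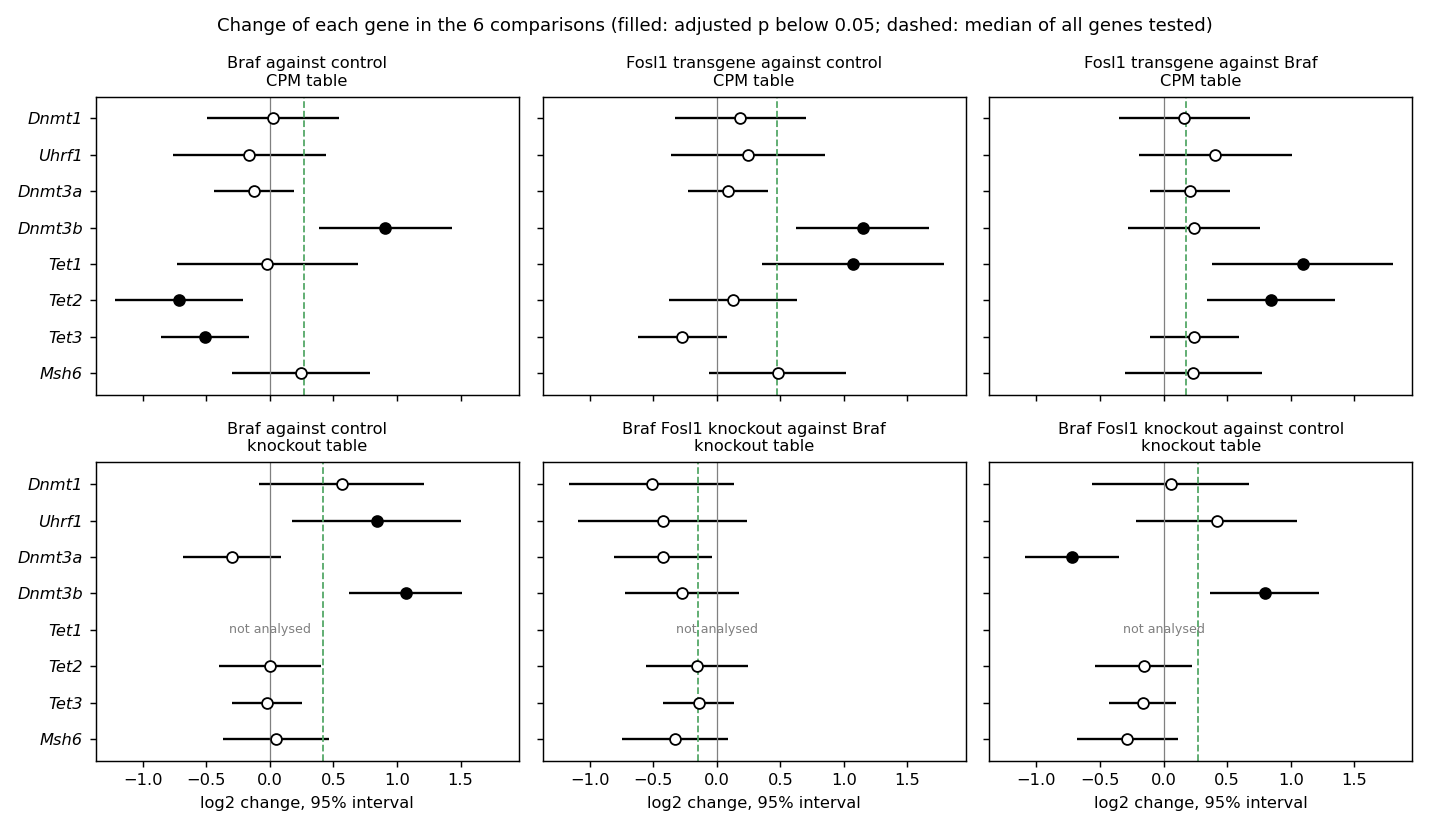
log2 change with 95% interval (x axis) of each gene (y axis) in the 6 comparisons; filled points have an adjusted p below 0.05 and the dashed green line marks the median of all genes tested. The whole interval of Dnmt3b lies to the right of the dashed line in the 4 comparisons with control, and Dnmt3a, Tet2 and Tet3 lie to its left in every comparison with control.

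Dnmt3b, one of the enzymes that place new methyl groups, was higher in all adenoma groups than in normal epithelium. It lies on chromosome 2 (153649450 to 153687730, plus strand; positions are from GENCODE M21 on GRCm38). In the CPM table it had 7.94, 7.69 and 10.7 CPM in transgene libraries 1 to 3, 7.94, 5.48 and 8.55 CPM in Braf libraries and 3.07, 3.58 and 3.48 CPM in controls. These values rest on 104 to 159 reads in transgene, 68 to 116 in Braf and 43 to 46 in control libraries. Every adenoma library was above every control. The transgene mean of 8.78 ± 1.67 CPM against 3.38 ± 0.269 CPM in controls (SD, n = 3 each) gave a log2 change of 1.15 (95% interval 0.63 to 1.67, limma adjusted p = 0.00166). The Braf mean of 7.32 ± 1.63 CPM gave 0.91 (0.39 to 1.43, limma adjusted p = 0.00841). An exact permutation test of 3 libraries against 3 cannot go below 0.1, the value it gave for both. Between transgene and Braf the log2 change was 0.24 (-0.28 to 0.76, limma adjusted p = 0.508), and the libraries overlapped.

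In the knockout table, Dnmt3b ranged from 3.72 to 6.35 nCPM in knockout libraries with a median of 5.05. Braf libraries 4 to 8 had 6.14, 7.50, 6.33, 4.77 and 6.68 nCPM, and controls ranged from 1.67 to 4.28 with a median of 2.19. Braf libraries were all above the controls, while the highest control (control 7) exceeded the lowest knockout library (knockout 2). The Braf mean of 6.28 ± 0.994 (n = 5) against 2.56 ± 1.04 nCPM in controls (n = 6) gave a log2 change of 1.07 (0.62 to 1.51, limma adjusted p = 0.00026, exact permutation p = 0.00433). The knockout mean of 5.04 ± 0.926 nCPM gave 0.79 against control (0.37 to 1.22, limma adjusted p = 0.00258). This call was lost in a fit with the title number as a block (limma adjusted p = 0.16). Knockout against Braf had a log2 change of -0.27 (-0.72 to 0.17, limma adjusted p = 0.571). The interval allows a decrease as well as no change.

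Dnmt3a, the other de novo enzyme gene (chromosome 12, 3806007 to 3914443, plus strand), did not rise with Dnmt3b. In the CPM table it had 34.6, 43.6 and 37.8 CPM in transgene, 35.3, 32.9 and 31.2 CPM in Braf and 35.0, 35.0 and 38.7 CPM in control libraries. The groups overlapped. The log2 change was 0.09 in transgene against control (adjusted p = 0.615) and -0.12 in Braf against control (adjusted p = 0.483). With TMM scaling the values were -0.36 (adjusted p = 0.033) and -0.39 (adjusted p = 0.0278), so the direction in the transgene comparison turned. Dnmt3a in the knockout table ranged from 18.6 to 39.1 nCPM in knockout libraries (median 23.2). Braf libraries had 29.4, 37.8, 32.4, 24.5 and 40.8 nCPM, and controls ranged from 33.0 to 51.0 (median 40.1). Apart from knockout 6, each knockout library was below each control. The knockout mean of 24.7 ± 7.54 against 40.5 ± 5.94 nCPM in controls (n = 6 each) gave a log2 change of -0.72 (-1.09 to -0.35, limma adjusted p = 0.00169, exact permutation p = 0.00649). Braf against control had -0.30 (adjusted p = 0.167), which was called under TMM scaling at -0.76 (adjusted p = 0.000347). Knockout against Braf had -0.42 (-0.81 to -0.04, limma adjusted p = 0.3, exact permutation p = 0.0736). Exons of the antisense gene Dnmt3aos overlap those of Dnmt3a, and use of strand in the counting is not given in the sources used here, so reads of the pair cannot be told apart.

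The balance of the pair does not depend on how a library is scaled. Dnmt3b made up 18.6 ± 3.53% of the summed Dnmt3a and Dnmt3b values in transgene, 18.0 ± 3.62% in Braf and 8.53 ± 0.649% in control libraries of the CPM table (SD, n = 3 each). The share in the knockout table was 17.5 ± 3.87% in knockout (n = 6), 16.1 ± 1.20% in Braf (n = 5) and 5.91 ± 2.21% in control libraries (n = 6). The lowest adenoma library of that table, knockout 6, had 11.8%, and the highest control, control 7, had 10.2%. No control library reached an adenoma library in either table. The shares are not corrected for gene length, and they were not tested because the genes were chosen with results of these data known.

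**Figure D4:**
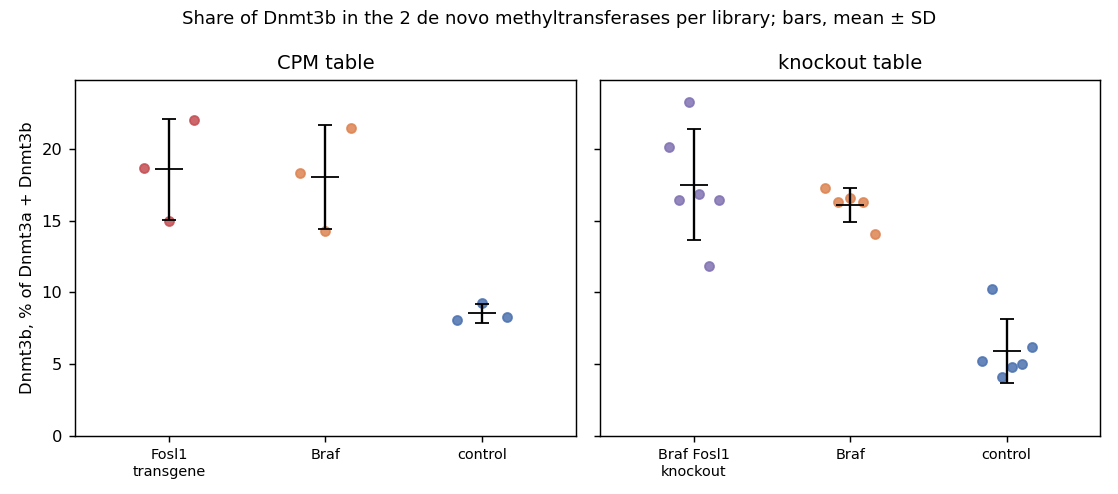
Dnmt3b as a percentage of Dnmt3a plus Dnmt3b (y axis) in each library of the CPM table (left) and the knockout table (right); points are libraries, bars means and SD. All adenoma libraries stand at 11.8% or more and all controls at 10.2% or less.

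Dnmt1, the maintenance enzyme gene (chromosome 9, 20907209 to 20959888, minus strand), passed the test in no comparison. In the CPM table it had 120, 106 and 156 CPM in transgene, 95.9, 140 and 105 CPM in Braf and 84.3, 106 and 150 CPM in control libraries. The spread within each group was as wide as any difference between groups. The log2 change was 0.19 (-0.33 to 0.70, adjusted p = 0.502) in transgene against control and 0.02 (-0.49 to 0.54, adjusted p = 0.941) in Braf against control. Both were negative under TMM scaling, at -0.26 (adjusted p = 0.323) and -0.24 (adjusted p = 0.387). Dnmt1 in the knockout table ranged from 21.3 to 66.2 nCPM in knockout libraries (median 48.8), and Braf libraries 4 to 8 had 45.7, 72.3, 77.0, 38.9 and 87.9 nCPM. Controls ranged from 19.4 to 66.1 nCPM (median 43.7). The lowest control was control 4, one of the libraries with a high mitochondrial share. Braf against control had a log2 change of 0.57 (-0.08 to 1.21, adjusted p = 0.12), knockout against Braf -0.51 (-1.16 to 0.14, adjusted p = 0.453) and knockout against control 0.06 (-0.56 to 0.67, adjusted p = 0.882). The last of these was -0.25 under TMM scaling (adjusted p = 0.413).

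Uhrf1, which guides Dnmt1 to replicated DNA (chromosome 17, 56303321 to 56323486, plus strand), had 92.7, 66.5 and 127 CPM in transgene, 56.6, 88.4 and 66.6 CPM in Braf and 62.9, 70.1 and 106 CPM in control libraries. The groups overlapped, with log2 changes of 0.25 (adjusted p = 0.445, and -0.20 under TMM scaling) in transgene against control and -0.16 (adjusted p = 0.644) in Braf against control. Uhrf1 in the knockout table ranged from 21.3 to 78.9 nCPM in knockout libraries (median 40.2). Braf libraries had 43.8, 69.4, 49.2, 35.3 and 79.8 nCPM, and controls ranged from 14.4 to 45.0 (median 31.4). Braf and control libraries overlapped at the edge. The Braf mean of 55.5 ± 18.5 (n = 5) against 31.2 ± 11.6 nCPM in controls (n = 6) gave a log2 change of 0.84 (0.18 to 1.51, limma adjusted p = 0.0278, exact permutation p = 0.0368). This call was lost in 8 of 22 alternatives, among them TMM scaling (0.38, adjusted p = 0.236) and leaving out control 4, 5 or 6 or Braf 5 or 8, with adjusted p between 0.00676 and 0.236 over all of them. Knockout against control had 0.42 (-0.22 to 1.05, adjusted p = 0.248), and knockout against Braf -0.42 (-1.09 to 0.24, adjusted p = 0.55).

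Dnmt1 and Uhrf1 are genes of dividing cells, so their levels were set beside the 26 listed genes of the replication (S) phase, such as Mcm7, Gins4 and Rrm2. In transgene against control 16 of these 26 were called higher and 0 lower, and in Braf against control 10 higher and 0 lower in the CPM table and 18 higher and 0 lower in the knockout table. Under TMM scaling the counts were 8 higher and 1 lower, 3 and 0, and 13 and 0. Knockout against control called 12 higher and 1 lower (Chaf1a, a chromatin assembly factor, log2 change -0.68, adjusted p = 0.0284), or 7 and 2 under TMM scaling. Under the deposited scaling, 46.7% of all genes were higher in transgene against control and 37.4% in knockout against control. For Braf against control this share was 33.1% in the CPM table and 45.3% in the knockout table. The S phase count of 10 in Braf against control of the CPM table was thus near the share of all genes. In knockout against Braf 0 were called either way, with a median of -0.37 beside -0.15 over all genes. Within each library, log2 of Dnmt1 minus log2 of the median S phase gene was 1.56 ± 0.18 in transgene, 1.76 ± 0.21 in Braf and 1.95 ± 0.16 in control libraries (SD, n = 3 each). The knockout table gave 0.81 ± 0.21 in knockout (n = 6), 1.04 ± 0.20 in Braf (n = 5) and 1.46 ± 0.34 in controls (n = 6). Relative to S phase genes Dnmt1 was thus lowest in knockout libraries (at most 1.15) and highest in controls (up to 2.00), with overlap. The same difference for Uhrf1 was 0.69 ± 0.25 in knockout, 0.83 ± 0.20 in Braf and 0.97 ± 0.22 in control libraries of the knockout table, and the groups overlapped. The CPM table gave 1.11 ± 0.35 for Uhrf1 in transgene, 1.07 ± 0.19 in Braf and 1.44 ± 0.076 in control libraries, with every Braf library (at most 1.24) below every control (at least 1.38). For Msh6 it was 0.05 ± 0.35 in knockout, 0.10 ± 0.14 in Braf and 1.06 ± 0.50 in controls of the knockout table, and 0.21 ± 0.16 in transgene, 0.34 ± 0.40 in Braf and 0.30 ± 0.17 in controls of the CPM table. Relative to S phase genes, mean Msh6 was thus lower in adenomas than in controls of the knockout table. Knockout libraries (up to 0.69) overlapped controls (down to 0.33), and Braf libraries (at most 0.24) did not. In the CPM table all groups overlapped. Msh6 itself was not called in either comparison with control of the knockout table. Its log2 change was 0.04 in Braf (adjusted p = 0.857) and -0.29 in knockout (adjusted p = 0.207). The median S phase gene was higher there in adenomas, with group medians of 25.4 nCPM in knockout, 31.4 in Braf and 16.3 in controls. The differences from the median S phase gene are descriptions without a test.

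**Figure D5:**
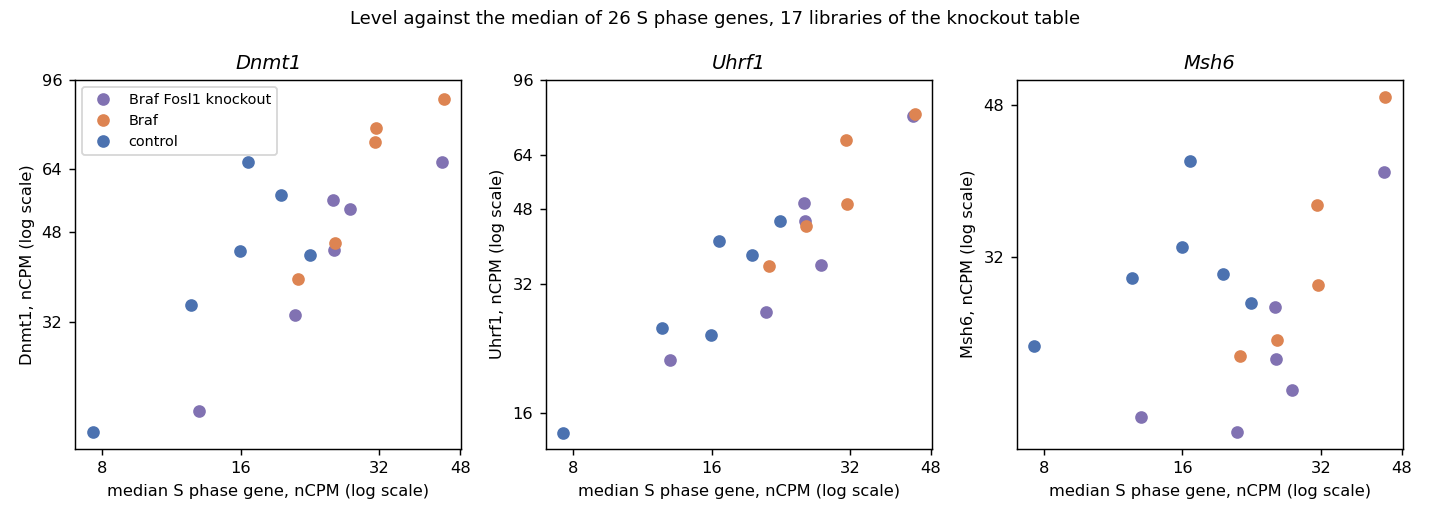
Level of Dnmt1, Uhrf1 and Msh6 (y axes, nCPM, log scale) against the median level of 26 S phase genes (x axes, nCPM, log scale) in the 17 grouped libraries of the knockout table; each point is a library. Controls have median S phase levels of 7.62 to 22.6 nCPM, and for Dnmt1 and Msh6 most lie above adenomas of a similar S phase level.

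Tet1, the least expressed Tet gene here (chromosome 10, 62804570 to 62908996, minus strand), was highest in the Fosl1 transgene libraries. It had 38, 53 and 20 reads in transgene libraries 1 to 3, 18, 5 and 4 reads in Braf and 10, 4 and 12 reads in control libraries. In CPM these were 2.45, 3.92 and 1.35 in transgene, 1.26, 0.403 and 0.295 in Braf and 0.715, 0.311 and 0.909 in control libraries. Every transgene library was above every other library, by little in the case of transgene 3 over Braf 1. Only the transgene libraries and Braf 1 reached 1 CPM, which a gene needed in at least 3 libraries to be tested. Tet1 thus entered the fit through the group where it is high, and its calls are no support beyond these values. The transgene mean of 2.57 ± 1.29 CPM gave log2 changes of 1.07 against control (0.36 to 1.78, limma adjusted p = 0.0137) and 1.09 against Braf (0.38 to 1.81, limma adjusted p = 0.038), on the log2(value + 1) scale, which understates changes at this level. On the reads themselves neither was called. edgeR gave 1.56 (adjusted p = 0.0647) and 1.81 (adjusted p = 0.0914), and DESeq2 gave 1.56 (adjusted p = 0.0693) and 1.80 (adjusted p = 0.0744). Over all alternatives the adjusted p ran from 0.00164 to 0.0693 against control and from 0.0152 to 0.143 against Braf. The call against control was lost in 4 of 16 alternatives and that against Braf in 10 of 16. Without transgene 2, the highest library, both were lost. Leaving out control 2 also ended the call against control, and leaving out transgene 1, Braf 2 or Braf 3 that against Braf. The call against Braf was lost as well under TMM scaling (0.97, adjusted p = 0.0587), under median-ratio scaling (0.97, adjusted p = 0.0606) and with those 2 groups alone (1.09, adjusted p = 0.0794). Braf against control had -0.02 (-0.73 to 0.69, adjusted p = 0.961). Fibroblast and endothelial markers were also highest in the transgene libraries, and their part in the Tet1 level was not tested.

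Tet2 (chromosome 3, 133463679 to 133545139, minus strand) was lower in Braf adenomas than in the other groups of the CPM table. It had 22.3, 26.6 and 34.1 CPM in transgene, 18.4, 13.8 and 12.7 CPM in Braf and 19.0, 28.5 and 28.4 CPM in control libraries. The Braf libraries were all below the others, with Braf 1 just under control 1. The Braf mean of 15.0 ± 3.05 against 25.3 ± 5.44 CPM in controls gave a log2 change of -0.72 (-1.22 to -0.21, limma adjusted p = 0.0225). The transgene mean of 27.7 ± 5.93 CPM gave 0.84 against Braf (0.34 to 1.34, limma adjusted p = 0.0269) and 0.13 against control (-0.38 to 0.63, adjusted p = 0.647, and -0.31 under TMM scaling). Each of the called changes was lost in 5 of 17 alternatives. Against control these were array weights and leaving out Braf 2, Braf 3, control 2 or control 3 (adjusted p of 7.38e-05 to 0.193 over all alternatives). For transgene against Braf they were array weights and leaving out transgene 2, transgene 3, Braf 2 or Braf 3 (adjusted p of 0.0175 to 0.112). The fall was not seen in the knockout table. Tet2 ranged from 17.2 to 36.0 nCPM in knockout libraries (median 25.9), Braf libraries had 28.8, 35.3, 25.1, 21.1 and 33.5 nCPM, and controls ranged from 24.0 to 32.1 (median 29.4). Braf against control had a log2 change of 0.00 (-0.40 to 0.40, adjusted p = 0.997), knockout against Braf -0.16 (adjusted p = 0.723) and knockout against control -0.16 (adjusted p = 0.479). With TMM scaling Braf against control was -0.46 (adjusted p = 0.0184) and knockout against control -0.46 (adjusted p = 0.0147), so this result depends on scaling. Knockout against Braf was then 0.0025 (adjusted p = 0.996). Exons of the predicted gene Gm42567 overlap those of Tet2 on the opposite strand.

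Tet3, the most abundant of the Tet genes per exon length (chromosome 6, 83362373 to 83459084, minus strand), had 63.3, 78.0 and 81.1 CPM in transgene, 57.2, 69.6 and 60.5 CPM in Braf and 77.4, 88.3 and 103 CPM in control libraries. Every Braf library was below every control, and the transgene libraries overlapped both. The Braf mean of 62.4 ± 6.41 against 89.7 ± 13.0 CPM in controls gave a log2 change of -0.51 (-0.86 to -0.16, limma adjusted p = 0.0199). It was lost without Braf 1 and without control 3, with adjusted p of 6.13e-07 to 0.0724 over all alternatives. Transgene against control had -0.27 (-0.62 to 0.08, adjusted p = 0.155), called under TMM scaling at -0.72 (adjusted p = 0.00174). Tet3 varied less in the knockout table. It ranged from 66.0 to 83.3 nCPM in knockout libraries (median 76.9), Braf libraries had 103, 86.0, 73.6, 68.7 and 92.2 nCPM, and controls ranged from 75.2 to 96.7 (median 86.5). Log2 changes were -0.02 in Braf against control (adjusted p = 0.893), -0.14 in knockout against Braf (adjusted p = 0.63) and -0.17 in knockout against control (adjusted p = 0.273). Under TMM scaling the comparisons with control were -0.49 (adjusted p = 0.00445) for Braf and -0.47 (adjusted p = 0.00441) for the knockout, and knockout against Braf was 0.021 (adjusted p = 0.967). Tet2 made up 27.0 ± 2.23% of Tet2 plus Tet3 in transgene, 19.4 ± 4.31% in Braf and 21.9 ± 2.36% in control libraries of the CPM table, and 18.9 to 30.2% in knockout, 21.8 to 29.1% in Braf and 23.1 to 27.5% in control libraries of the knockout table.

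Msh6, the mismatch recognition gene (chromosome 17, 87975062 to 87990892, plus strand), passed the test in none of the 6 comparisons with all libraries weighted alike and the deposited scaling. It had 48.6, 41.2 and 60.2 CPM in transgene, 38.9, 55.9 and 33.8 CPM in Braf and 34.0, 27.2 and 47.0 CPM in control libraries. Log2 changes were 0.48 in transgene against control (-0.06 to 1.02, adjusted p = 0.107), 0.25 in Braf against control (adjusted p = 0.421, and -0.02 under TMM scaling) and 0.23 in transgene against Braf (adjusted p = 0.536). The change in transgene against control was called with array weights (0.46, adjusted p = 0.0243) and without control 3 (0.68, adjusted p = 0.0348). The libraries of all groups overlapped. Msh6 in the knockout table ranged from 20.1 to 40.2 nCPM in knockout libraries (median 23.5), Braf libraries had 25.7, 36.8, 29.8, 24.6 and 49.0 nCPM, and controls ranged from 25.3 to 41.3 (median 30.4). Log2 changes were 0.04 in Braf against control (adjusted p = 0.857), -0.33 in knockout against Braf (adjusted p = 0.447) and -0.29 in knockout against control (-0.68 to 0.11, adjusted p = 0.207). Under TMM scaling the comparisons with control were -0.42 (adjusted p = 0.0337) for Braf and -0.59 (adjusted p = 0.00316) for the knockout. Exons of Fbxo11 overlap those of Msh6 on the opposite strand, so reads of the pair cannot be told apart without strand.

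Other mismatch repair genes were listed beside Msh6, and 8 of 9 were in each table. Mlh3 rose in all 4 comparisons with control, at 0.81 (transgene, adjusted p = 0.00615), 0.63 (Braf, CPM table, adjusted p = 0.0274), 1.19 (Braf, knockout table, adjusted p = 0.000202) and 1.49 (knockout, adjusted p = 1.09e-05). Msh5, a meiotic homologue of MutS, had 30.6 nCPM in knockout, 23.4 in Braf and 6.15 in control libraries on average, with log2 changes of 2.05 (adjusted p = 1.73e-05) and 1.65 (adjusted p = 0.000267) against control. Of the 8 genes, 4 rose and 0 fell in transgene against control, 2 and 0 in Braf against control in the CPM table, 3 and 0 in the knockout table, and 2 and 0 in knockout against control. Under TMM scaling the counts were 0 and 0, 1 and 1, 2 and 1, and 2 and 2, so most of these rises depend on scaling. Under the deposited scaling, 46.7%, 33.1%, 45.3% and 37.4% of all genes were higher, in the same order of comparisons. As shares of the 8, the rises were near or below these.

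Replication factors that mismatch repair also uses (14 genes) were mostly called higher in the transgene adenomas than in control epithelium. There 12 rose and 0 fell (7 and 2 under TMM scaling), beside 46.7% of all genes higher and 17.5% lower, led by Pold3, a subunit of DNA polymerase delta (141 CPM in transgene and 42.3 CPM in control libraries, log2 change 1.74, adjusted p = 0.000127), and Rfc3 of the clamp loader (67.8 CPM in transgene and 22.2 CPM in control libraries, 1.55, adjusted p = 0.00016). Both also rose in transgene against Braf, Pold3 by 1.36 (adjusted p = 0.00397) and Rfc3 by 1.17 (adjusted p = 0.00547). In that comparison 3 of 14 rose and 0 fell, beside 14.5% of all genes higher and 4.72% lower. This count and those that follow are under the deposited scaling, and their counts under TMM scaling are not reported here. In Braf against control 4 rose and 1 fell in the CPM table (all genes 33.1% higher), and 10 rose and 0 fell in the knockout table (all genes 45.3% higher). Transgene and Braf counts were not compared by a test. Pold4, another subunit, led both with log2 changes of 1.91 (adjusted p = 8.89e-05) and 1.31 (adjusted p = 3.87e-05). The one that fell was Pold1, the catalytic subunit, with 49.5 CPM in Braf and 80.2 CPM in control libraries (-0.65, adjusted p = 0.0244). In knockout against control 4 rose and 0 fell (all genes 37.4% higher), and in knockout against Braf 0 did either.

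Partners of the methyltransferases (12 of 14 in each table) were led by Uhrf2, a relative of Uhrf1, and Cdca7, which helps the remodeller Hells open chromatin for methylation. Uhrf2 had 72.9 CPM in transgene, 56.5 CPM in Braf and 25.5 CPM in control libraries on average, with log2 changes of 1.52 (adjusted p = 9.97e-05) and 1.15 (adjusted p = 0.00076) against control. Uhrf2 in the knockout table had 49.0 nCPM in knockout, 58.0 in Braf and 24.1 in control libraries (1.00, adjusted p = 7.73e-05, and 1.23, adjusted p = 1.19e-05). Uhrf2 thus moved in each comparison with control, in which Uhrf1 was called once. Cdca7 rose by 1.35 in transgene against control (adjusted p = 0.00023), 0.64 in transgene against Braf (adjusted p = 0.0479), 0.70 in Braf against control (adjusted p = 0.0137), 1.38 in Braf against control of the knockout table (adjusted p = 2.15e-05) and 0.97 in knockout against control (adjusted p = 0.000583). Hells rose in transgene against control by 1.08 (adjusted p = 0.00495). The counts were 4 higher and 0 lower in transgene against control, 2 and 0 in Braf against control, 7 and 0 in Braf against control of the knockout table, and 4 and 0 in knockout against control. Under TMM scaling they were 3 and 2, 1 and 1, 2 and 2, and 2 and 3. Under the deposited scaling, 46.7%, 33.1%, 45.3% and 37.4% of all genes were higher, in the same order of comparisons. As shares of the 12, the rises were below these in the CPM table. They were above in Braf against control of the knockout table and near in knockout against control.

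Of 7 genes for proteins that read methylated CpG sites, 5 rose and 0 fell in transgene against control, as in Braf against control of either table, and 4 rose and 0 fell in knockout against control. Of all genes, 46.7% were higher in transgene against control, 33.1% and 45.3% in Braf against control of the CPM and the knockout table, and 37.4% in knockout against control. Under TMM scaling the counts were 3 and 1 in transgene against control, 3 and 0 and 4 and 0 in Braf against control of the CPM and the knockout table, and 3 and 0 in knockout against control. Zbtb4, a zinc finger repressor, had 34.0 CPM in transgene, 30.3 CPM in Braf and 6.53 CPM in control libraries, with log2 changes of 2.22 (adjusted p = 5.05e-06) and 2.06 (adjusted p = 7.64e-06). Zbtb4 in the knockout table had 40.2 nCPM in knockout, 36.9 in Braf and 9.38 in control libraries (2.00, adjusted p = 5.23e-08, and 1.89, adjusted p = 2.13e-07). Its relative Zbtb38 rose by 1.97 in transgene against control (adjusted p = 4.15e-05), 1.01 in transgene against Braf (adjusted p = 0.0112), 1.34 in Braf (adjusted p = 3.37e-06) and 1.45 in knockout (adjusted p = 6.83e-07) against control of the knockout table. Mbd3 and Mbd2, members of NuRD-type repressor complexes, rose by 0.83 (adjusted p = 0.000492) and 0.62 (adjusted p = 0.01) in Braf against control of the CPM table. In knockout against Braf 0 of the 7 were called.

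Genes for demethylation and for the repair of oxidised cytosine were called in both directions, in transgene against control at shares near those of all genes. There 8 of 16 rose and 3 fell (5 and 6 under TMM scaling), beside 46.7% of all genes higher and 17.5% lower. In Braf against control 5 rose and 2 fell in the CPM table (3 and 4) and 4 rose and 2 fell of 15 tested in the knockout table (2 and 3). In knockout against control 2 rose and 3 fell (1 and 5), and in knockout against Braf 0 did either. Of all genes, 33.1% were higher and 18% lower in Braf against control of the CPM table. These shares were 45.3% and 16.2% in the knockout table, and 37.4% and 19.4% in knockout against control. Cxxc5, a CpG-binding protein known to recruit Tet2, had 30.1 CPM in transgene, 8.40 CPM in Braf and 1.18 CPM in control libraries (3.81, adjusted p = 1.75e-05, and 2.01, adjusted p = 0.00129). Cxxc4, its relative, rose by 1.82 in transgene against Braf (adjusted p = 0.00123). Gadd45a fell in Braf against control (-0.81, adjusted p = 0.00806, and -1.02, adjusted p = 0.00127 in the knockout table), while Gadd45b rose there (1.47, adjusted p = 1.75e-07) and in knockout against control (1.25, adjusted p = 7.97e-07).

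Of the genes that supply methyl groups, 14 of 17 were in each table. In transgene against control 8 rose and 2 fell (4 and 5 under TMM scaling), in Braf against control 4 rose and 2 fell in the CPM table (2 and 2) and 7 rose and 1 fell in the knockout table (4 and 2), and in knockout against control 6 rose and 1 fell (3 and 3). Under the deposited scaling, 46.7%, 33.1%, 45.3% and 37.4% of all genes were higher, in the same order of comparisons. As shares of the 14, the rises were near these, and somewhat above in transgene against control. Mthfd1l, a mitochondrial enzyme of folate metabolism, had 47.0 CPM in transgene, 44.5 CPM in Braf and 10.7 CPM in control libraries (log2 changes 2.05, adjusted p = 4.54e-06, and 1.96, adjusted p = 5.5e-06). Mthfd1l in the knockout table had 28.0 nCPM in knockout, 29.9 in Braf and 5.66 in control libraries (2.15, adjusted p = 6.68e-07, and 2.27, adjusted p = 6.04e-07). Mat2a, which makes the methyl donor S-adenosylmethionine, had 362 CPM in transgene, 227 CPM in Braf and 125 CPM in control libraries (1.53, adjusted p = 0.000214, and 0.85, adjusted p = 0.00979). Slc19a1, a folate carrier, and Ahcy, which clears S-adenosylhomocysteine, fell in transgene against control (-0.78, adjusted p = 0.00431, and -0.59, adjusted p = 0.0047). Slc19a1 also fell in Braf against control of the CPM table (-0.54, adjusted p = 0.033).

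Germline genes that promoter methylation is known to silence in the mouse were mostly not in the tables, with 5 of 15 in the CPM table. Of 4 tested there, 3 rose and 1 fell in Braf against control and 2 rose and 1 fell in transgene against control. Over all genes, 33.1% were higher and 18% lower in Braf against control, and 46.7% higher and 17.5% lower in transgene against control. Piwil2, of the piRNA pathway, had 3.28 CPM in transgene, 15.9 CPM in Braf and 1.35 CPM in control libraries, with a log2 change of 2.53 in Braf against control (adjusted p = 0.00134) and -1.68 in transgene against Braf (adjusted p = 0.0323). Piwil2 in the knockout table had 11.6 nCPM in knockout, 12.3 in Braf and 0.654 in control libraries (2.84, adjusted p = 3.82e-08, and 2.95, adjusted p = 4.51e-08). Asz1 had 15.0 CPM in transgene, 6.11 CPM in Braf and 0.0259 CPM in control libraries (3.95, adjusted p = 0.000907, and 2.19, adjusted p = 0.0246), and Brdt rose as well. Sycp3, of the meiotic chromosome axis, fell to 0.339 CPM in transgene and 0.0726 CPM in Braf libraries, against 1.29 CPM in controls (-0.79, adjusted p = 0.00731, and -1.09, adjusted p = 0.0015). In Braf libraries 3 reads stood for 0.211 to 0.242 CPM, so that mean is below 3 reads. A gene was tested with at least 1 CPM in at least 3 libraries. Asz1 could pass this only through adenomas and Sycp3 only with controls, the groups where each is high. The knockout table needed 5 libraries at 1 nCPM. With a control mean of 0.654 nCPM, Piwil2 could pass there only with adenomas, where it is high. The directions of these genes were thus not free of the filter, and their calls are no support beyond the values. Mouse orthologues of the human marker panel for CpG island methylation (5 of 8 in each table) had 4 higher in transgene against control, 1 and 3 higher in Braf against control of the CPM and the knockout table and 2 higher in knockout against control, with 0 lower in each. Under TMM scaling the counts were 3 higher and 0 lower, 1 and 1, 1 and 0, and 2 and 1. Under the deposited scaling, 46.7%, 33.1%, 45.3% and 37.4% of all genes were higher, in the same order of comparisons. Cdkn2a, a senescence gene that is often methylated in human serrated tumours, had 22.9 ± 14.5 CPM in transgene, 70.2 ± 26.1 CPM in Braf and 0.172 ± 0.106 CPM in control libraries (4.18, adjusted p = 2.43e-05, and 5.85, adjusted p = 2.76e-06). Cdkn2a in the knockout table had 50.4 ± 30.2 nCPM in knockout, 47.9 ± 21.5 in Braf and 0.269 ± 0.189 in control libraries (5.21, adjusted p = 1.24e-11, and 5.16, adjusted p = 3.58e-11). Cdkn2a too passed the filter through the adenomas, where it is high.

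Per kilobase of exon, the order of the 8 genes in controls of the CPM table was Uhrf1 (18.7 ± 5.41 CPM per kb), Dnmt1 (15.4 ± 4.56), Msh6 (8.30 ± 2.32), Tet3 (5.37 ± 0.78), Dnmt3a (2.18 ± 0.13), Tet2 (1.13 to 1.69), Dnmt3b (0.66 ± 0.053) and Tet1 (0.042 ± 0.020). The libraries of Uhrf1 and Dnmt1 overlapped, and all other neighbours in this order were apart in these 3 libraries, Dnmt1 (lowest 11.4) and Msh6 (highest 10.8) by little, and Msh6 (lowest 6.25) and Tet3 (highest 6.18) by less. In transgene libraries Dnmt3b at 1.72 ± 0.33 CPM per kb stood beside Tet2 at 1.64 ± 0.35, and in Braf libraries at 1.43 ± 0.32 above Tet2 at 0.89 ± 0.18. The libraries of Dnmt3b and Tet2 overlapped in both adenoma groups and were apart in controls. Dnmt3b stayed last in the knockout table of the 7, at 0.99 ± 0.18 nCPM per kb in knockout, 1.23 ± 0.19 in Braf and 0.50 ± 0.20 in control libraries. Exon length is the union over all annotated transcripts, so genes with long rare transcripts are understated.

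The genes whose pattern over the 17 grouped libraries of the knockout table was most like that of each member were found by the root mean square difference of centred log2(nCPM + 1), among 10436 genes (10437 for Dnmt3b) with a mean of at least 5 nCPM. Parp1, an enzyme of DNA repair, was nearest to both Uhrf1 (0.18) and Dnmt1 (0.19), whose own variation was 0.63 and 0.57. Second came Atad2 for Uhrf1 (0.20) and Ruvbl2 for Dnmt1 (0.19). Nearest to Dnmt3a were Tbce (0.19) and Lztr1 (0.21), against its own 0.41, and nearest to Dnmt3b were Tmem29 (0.20) and Ldb1 (0.22), against 0.52. Tet2 was closest to Casp2 (0.16) and Cpsf7 (0.18), Tet3 to Birc6 (0.12) and Scaf4 (0.13), and Msh6 to Zbtb45 (0.15) and Sfmbt1 (0.16). For Tet3 the nearest gene is little closer than a flat line, since its own variation was 0.17. The libraries share groups, mitochondrial share and scaling, so likeness is a description only.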

How the data were processed

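The submitters' processing notes name fastp, STAR, limma and the mouse build GRCm38, without versions or order. The authors deposited CPM values, per the file headers. Each of the 9 libraries' CPM values lay within 0.02 of a whole number of reads (100% of values), so reads were recovered for the added count tests. Another 12 columns of that table belong to no sample here and were not used. The knockout table holds a deposited signal, normalised counts per the file headers, scaled here by 0.159 from a mean column total of 6307850. Per the labels, libraries were made with 1 of 2 kits (TruSeq v2, or an rRNA-depleting stranded one), and the kit of each library is not given in the sources used here.

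Groups were taken from titles for 26 of 27 libraries, and the title of the other disagrees with its genotype label. Genes with at least 1 CPM or nCPM in at least 3 libraries (CPM table) or 5 (knockout table) were fitted on log2(value + 1) in limma 3.58.1 (R 4.3.3), with trend and robust variances and 1 mean per group, which left 15173 and 14806 genes. Tests were two-sided, with Benjamini-Hochberg adjustment over all genes of a table, a threshold of 0.05 and 95% intervals. Adjusted p-values without a named tool are from this fit. Titles number the adenoma mice; nothing says that control libraries came from separate mice, so p-values there measure spread between samples. The 8 genes, lists and tests were chosen with earlier results of these data known. All 8 genes are named, with at most 4 genes of a list in a comparison, those of smallest adjusted p, and any passing against most of their list. The promoters shown were chosen after values were seen. Some genes of the lists count in the totals and are not reported here by name. Intervals cover the spread between libraries, and read floors counting error only.

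Alternatives were other pseudocounts, filters, TMM and median-ratio scaling, the compared groups alone, array weights, the title number as a block, and leaving out each library. Chosen after seeing the data were edgeR 4.0.16 and DESeq2 1.42.0 on recovered reads, a fit lacking the 3 libraries richest in mitochondrial RNA, and a total lacking mitochondrial genes. The limma fit was tested on simulated data.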

Additional observations from a re-analysis of the deposited data

Results flagged for a closer look

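Among 21 groups of 4 to 10 libraries checked, 1 had a library far from the rest. Dnmt3a stood at 39.1 nCPM in knockout 6, while the next highest knockout library had 25.2 nCPM and the lowest 18.6 nCPM. Its gap to the next library was 0.679 of the range of the group, above Dixon's critical value for 6 libraries. Chance marks about 1 group in 20.

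The library without a group was set beside the controls of its table. It had 97.1 nCPM of Dnmt1, above the highest control at 66.1. Uhrf1 stood at 99.5 nCPM there, against 45.0 in the highest control, and Dnmt3b at 7.06 nCPM, against 4.28. Msh6 was 55.4 nCPM, against 41.3, Tet3 107 nCPM, against 96.7, and Tet2 33.6 nCPM, against 32.1. Dnmt1, Uhrf1, Tet3 and Msh6 were also above the highest Braf and knockout libraries. Dnmt3a, at 41.4 nCPM, lay within the control range. No group was given to this library from these values.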

How the results depend on the processing

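Of 45 results for single genes, none that passed the test turned direction under any alternative. Of the alternative values, 76 were of opposite sign to results that had not passed, and some of these were themselves called. Dnmt3a in transgene against control was called lower with TMM (adjusted p = 0.033), median-ratio scaling (0.0358), edgeR (0.0319) and DESeq2 (0.0166). In Braf against control of the knockout table, Msh6 was called lower with TMM (adjusted p = 0.0337). Tet2 was called lower there with TMM (adjusted p = 0.0184) and median-ratio scaling (0.035). The call for Dnmt3b in knockout against control was lost only with the replicate block (log2 change 0.52, adjusted p = 0.16, range over alternatives 0.000834 to 0.16). Deviations from the group mean of same-numbered samples correlated at -0.18 to 0.16 in the CPM table and -0.16 to 0.37 in the knockout table. Of these pairs, 3 of 9 and 4 of 10 were above 0.1, the highest being Braf 7 with knockout 7. Samples of different number were not compared in this way, so these values cannot decide whether the title numbers pair the samples. The cause of the other changes was not tested. Tet1 rests on 4 to 53 reads a library. The part of depth in its changed calls was not tested.

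The count of genes called in transgene against control (2) was 1 with the filter at 5 and 4 with TMM and with median-ratio scaling. In transgene against Braf (2) it was 1 with the filter at 5, TMM, median-ratio scaling, the 2 groups alone, array weights, the replicate block, edgeR and DESeq2. In Braf against control of the knockout table (2) it was 5 with TMM, 4 with median-ratio scaling and 1 without the 3 libraries of high mitochondrial share. In knockout against control (2) it was 5 with either scaling and 1 with the replicate block. Leaving out 1 library gave 1 to 3 in Braf against control and in transgene against control of the CPM table, 0 to 2 in transgene against Braf, 1 to 2 in Braf against control of the knockout table and 2 in knockout against control. With a pseudocount of 1 the Dnmt3b share was 10.5% in controls of the CPM table and 17.8% in Braf libraries of the knockout table.

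Signs turned as follows, in log2 change. In transgene against control, TMM, median-ratio scaling, edgeR and DESeq2 gave -0.26, -0.25, -0.27 and -0.28 for Dnmt1, -0.36, -0.34, -0.36 and -0.37 for Dnmt3a, -0.31, -0.29, -0.33 and -0.34 for Tet2, and -0.20, -0.19, -0.18 and -0.19 for Uhrf1. In Braf against control of the CPM table the same 4 gave -0.24, -0.24, -0.25 and -0.25 for Dnmt1 and -0.017, -0.0093, -0.011 and -0.0090 for Msh6, and array weights gave 0.19 for Tet1. In transgene against Braf they gave -0.020, -0.010, -0.018 and -0.030 for Dnmt1. In Braf against control of the knockout table, TMM and median-ratio scaling gave -0.42 and -0.37 for Msh6 and -0.46 and -0.41 for Tet2. There, Msh6 was -0.038 with array weights, -0.14 with the replicate block, -0.080 with the total without mitochondrial genes and -0.037 without the 3 libraries, Tet2 was -0.023 with the block and -0.12 with that total, and Tet3 was 0.017 with array weights and 0.041 without the 3 libraries. In knockout against Braf the scalings gave 0.0025 and 0.019 for Tet2 and 0.021 and 0.038 for Tet3. In knockout against control they gave -0.25 and -0.18 for Dnmt1, and without the 3 libraries Dnmt1 was -0.19 and Tet2 0.014. Leaving out 1 library gave ranges of -0.17 to 0.24 (Dnmt1), -0.33 to 0.062 (Uhrf1) and -0.27 to 0.13 (Tet1) in Braf against control of the CPM table, -0.0058 to 0.41 (Dnmt1), -0.0026 to 0.16 (Dnmt3a) and -0.060 to 0.26 (Tet2) in transgene against control, -0.077 to 0.10 (Tet2), -0.096 to 0.049 (Tet3) and -0.10 to 0.14 (Msh6) in Braf against control of the knockout table, and -0.15 to 0.25 (Dnmt1) in knockout against control.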
